A study of Caenorhabditis elegans with 2 samples.

Results

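The genes described here encode the translation factors of Caenorhabditis elegans, the proteins that place the ribosome on an mRNA and then drive it along the message. They were chosen by name: every protein-coding gene whose Ensembl name starts with eif-, eef-, iff-, ife- or ifg-, which gave 39 of the 19973 protein-coding genes on the nuclear chromosomes. By name, 6 of them (eef-) are elongation factors, 31 (eif-, ife- and ifg-) are initiation factors, and 2 (iff-) encode eIF5A, which is kept apart because it was named for initiation and is known to act in elongation. The question was at which of their promoters the nuclear hormone receptor NHR-237 was found by ChIP-seq, in which DNA bound to a protein is recovered with an antibody and sequenced. There was 1 group of 2 biological replicates, both whole first-stage (L1) larvae of mixed sex from strain OP228, which carries the mutation unc-119(ed3) and the integrated transgene wgIs228 that supplies eGFP-tagged NHR-237. Both replicates therefore carry the transgene, and no untagged sample or input was analysed here. Whole larvae were used, so the cells that held the binding cannot be told apart.

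Initiation factors bring the initiator tRNA (eIF2, recharged by eIF2B), the mRNA cap (eIF4E on its scaffold eIF4G) and the small ribosomal subunit (eIF3, eIF1 and eIF1A) together and find the start codon. In elongation, eEF1A delivers each aminoacyl-tRNA, the eEF1B subunits reload eEF1A with GTP, eEF2 moves the ribosome on, and eIF5A helps it over stretches where peptide bonds form slowly. Worm transcripts are often trans-spliced, so an annotated transcript start can mark a splice site and not the place where transcription begins.

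The regions at the promoters of 4 elongation factor genes, of iff-2 and of an eIF3 subunit gene are shown first, because they hold the strongest member region and the letters that recur between members. Each line is the 101 bases centred on the summit of the region, read 5′ to 3′ along the strand of the gene, from the RefSeq sequence of WBcel235 (the coordinates of ce11). The other members with a peak are described by values alone. The windows lie on chromosome III, 6972049 to 6972149, minus strand (eef-1A.1), X, 7823220 to 7823320, plus strand (eef-1A.2), III, 7973299 to 7973399, minus strand (eef-1B.1), IV, 15037136 to 15037236, plus strand (eef-1B.2), II, 8561394 to 8561494, minus strand (iff-2), and II, 14795103 to 14795203, plus strand (eif-3.B). Capitals mark GAGAGA in both eEF1A windows (as overlapping matches in that of eef-1A.2), a run of 16 bases in the eef-1A.1 window that recurs at 3 other places in the genome, a run of 11 bases that both eEF1B windows hold, and the hexamer GCAACG in the eef-1B.1 and eif-3.B windows, which the eef-1A.1 window also holds in lower case after the long run. The iff-2 window has no capitals. Letters so marked need not be particular to members: GAGAGA was in 31.5% of all IDR windows. The run of 11 bases occurs 121 times in the genome.
eef-1A.1: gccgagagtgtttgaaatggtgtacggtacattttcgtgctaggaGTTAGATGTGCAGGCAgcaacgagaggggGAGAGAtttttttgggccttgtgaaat
eef-1A.2: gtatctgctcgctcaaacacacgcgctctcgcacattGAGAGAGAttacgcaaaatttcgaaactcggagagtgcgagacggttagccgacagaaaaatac
eef-1B.1: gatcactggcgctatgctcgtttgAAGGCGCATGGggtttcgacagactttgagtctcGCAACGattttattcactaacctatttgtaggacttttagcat
eef-1B.2: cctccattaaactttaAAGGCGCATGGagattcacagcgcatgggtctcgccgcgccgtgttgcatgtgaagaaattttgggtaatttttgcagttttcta
iff-2: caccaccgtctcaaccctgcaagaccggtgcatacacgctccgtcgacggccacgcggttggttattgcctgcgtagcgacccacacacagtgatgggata
eif-3.B: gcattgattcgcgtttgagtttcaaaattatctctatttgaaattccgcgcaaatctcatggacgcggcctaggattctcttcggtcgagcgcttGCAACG

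Every one of the 6 elongation factor genes had a peak at its promoter, as did 1 of 2 eIF5A genes and 5 of 31 initiation factor genes (16.1%). In all, 12 of 39 translation factor genes (30.8%) had the summit of a peak in the promoter, against 4.66% of all protein-coding genes. A promoter ran from 1000 bp before to 200 bp after any annotated transcript start. A peak here is one of the 970 regions that passed the authors' threshold on the irreproducible discovery rate (IDR). That rate rests on how alike regions rank in both replicates. Passing it did not mean like ranks for every peak: that of eif-3.H ranked 5258 in replicate 1 and 327 in replicate 2. The members were chosen with results of these data known, so neither the share nor the contrast between the classes was tested. The initiation factors with a peak were 4 of the 11 eIF3 subunit genes (eif-3.B, eif-3.C, eif-3.E and eif-3.H) and 1 of the 5 eIF2B genes (eif-2Bbeta). None of the 3 eIF2 genes, none of the 5 eIF4E genes and not the eIF4G gene had one.

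Signals are the score that the authors' peak caller gave to a region. Its scale is not stated, so a value is read within its own list, by its rank from the strongest, and a ratio between replicates only beside the same ratio of other peaks. There were 21745 regions in the list of replicate 1, 25720 in that of replicate 2 and 7699 in that of both replicates pooled. These 3 lists reach down to weak regions, with −log10 q as low as 0.0177 in the pooled list. The 970 IDR peaks were the strongest pooled regions, with signals from 52.6 to 419. Sequencing depth is unknown.

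**Figure D1:**
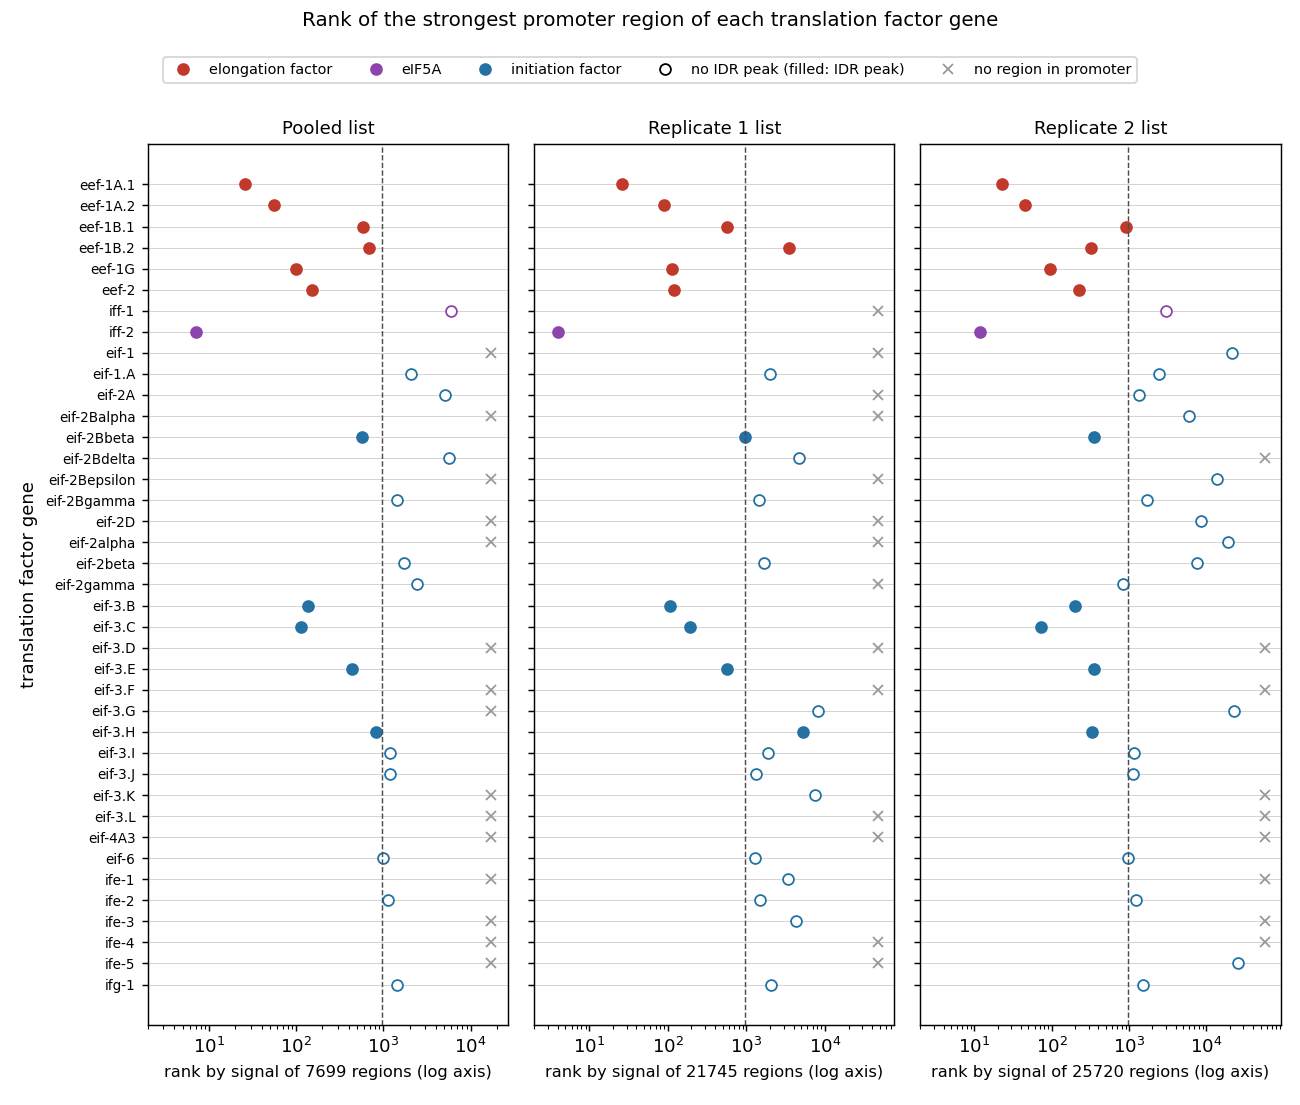
Rank by signal (log axis) of the strongest region in the promoter of each of the 39 genes, in the pooled, replicate 1 and replicate 2 lists; filled points have an IDR peak, open points do not, crosses have no region, and the dashed line is at rank 970. The 6 elongation factors and iff-2 lie left of the line in the pooled list, while 11 of the 16 initiation factors with a pooled region lie right of it.

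The genes of eEF1A, the most abundant elongation factor in most cells, had the strongest regions of the elongation class. The eef-1A.1 region (chromosome III, 6972035 to 6972188) had a signal of 129 in replicate 1, where it ranked 26, and of 116 in replicate 2, where it ranked 23. Its pooled signal was 242, the 26th highest. It was also one of the 29 IDR peaks narrower than the usual 364 bp, at 154 bp. The eef-1A.2 region (chromosome X, 7823088 to 7823451) had a signal of 85.3 in replicate 1 (rank 89) and of 87.0 in replicate 2 (rank 45), with a pooled signal of 174 (rank 56). Both genes were therefore among the 100 strongest of either replicate. Their summits lay at nearly the same distance from the gene, 387 bp upstream of the start of eef-1A.1 and 384 bp upstream of that of eef-1A.2. The regions were otherwise placed unlike each other. That of eef-1A.1 also lay 154 bp upstream of rfc-4, which runs the other way and encodes a replication factor C subunit, and 14 bp from the miRNA gene cel-mir-5549. That of eef-1A.2 lay in the promoter of no other protein-coding gene.

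Eukaryotic eEF1B loads eEF1A with GTP and has a structural subunit, eEF1G, beside the exchange subunits encoded by eef-1B.1 and eef-1B.2. The eef-1G region (chromosome V, 10965494 to 10965857) had a signal of 79.8 in replicate 1 (rank 112) and 64.4 in replicate 2 (rank 95), with a pooled rank of 99. The genes of the exchange subunits had weaker regions. That of eef-1B.1 (chromosome III, 7973167 to 7973530) had a signal of 39.4 in replicate 1 (rank 566) and 27.1 in replicate 2 (rank 901), and a pooled rank of 587. That of eef-1B.2 (chromosome IV, 15037004 to 15037367) had a signal of 17.4 in replicate 1 (rank 3483) and 42.0 in replicate 2 (rank 322), and a pooled rank of 688. This was the member on which the replicates differed most in the elongation class. The eef-1B.2 signal of replicate 2 was 2.41 times that of replicate 1 (log2 ratio 1.27), where the 966 IDR peaks seen in the lists of both replicates had quartiles of -0.64 and 0.05 on that log2 scale. Its summits were also the farthest apart between replicates, by 69 bp. The eef-1B.1 summit was the only one of the 12 inside its gene, 37 bp downstream of the start, in sequence annotated as untranslated.

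The gene of eEF2, the translocase, had a region on chromosome I from 9163323 to 9163686 with a signal of 77.3 in replicate 1 (rank 119) and 48.7 in replicate 2 (rank 225). Its pooled rank was 150. The summit lay 26 bp upstream of the start, and the region also lay in the promoter of the divergent gene clsp-1, whose start was 239 bp away. With the eEF1A genes and eef-1G, this made 4 of the 6 elongation genes that ranked within the 150 strongest pooled regions. Among the initiation factors 2 of 31 did so, and among all protein-coding genes 0.791%.

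**Figure D2:**
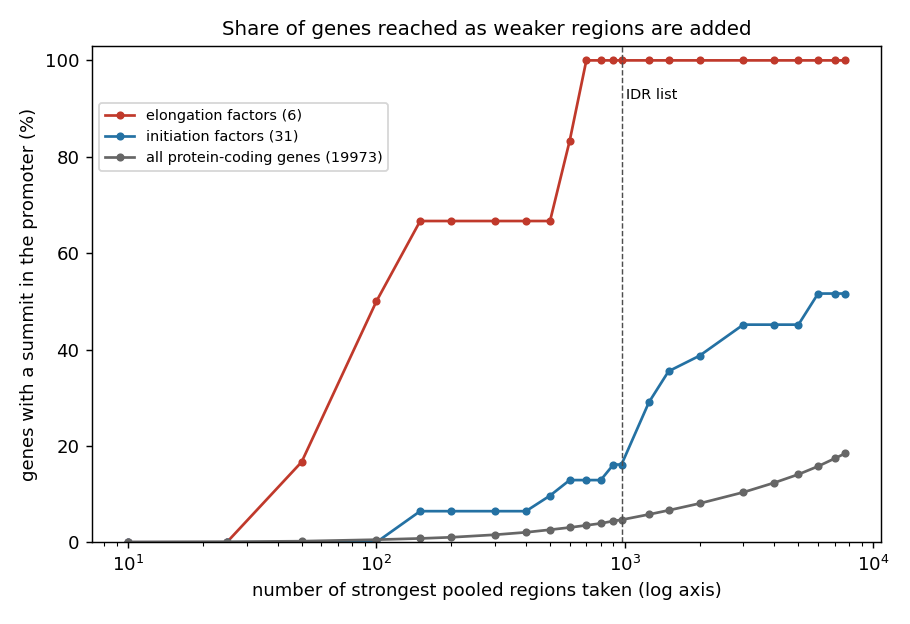
Share of genes with a summit in the promoter (percent) as the number of strongest pooled regions taken grows (log axis), for elongation factors, initiation factors and all protein-coding genes; the dashed line marks the 970 regions of the IDR list. The elongation curve reaches 66.7% at 150 regions and 100% at 700, where the initiation curve stands at 12.9% and the curve of all genes at 3.51%.

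The eIF5A genes lay at opposite ends of the ranks. In C. elegans iff-1 is known for its role in the germline and iff-2 for expression in the soma. The iff-2 region (chromosome II, 8561358 to 8561520) was the strongest of all members. It had a signal of 181 in replicate 1 (rank 4) and 130.2 in replicate 2 (rank 12), with a pooled signal of 312 (rank 7). It was 163 bp wide, the second of the 2 narrow regions among members. The promoter of iff-1 held no region in replicate 1 and one with a signal of 18.1 in replicate 2 (rank 3026). Its pooled region ranked 5929 with a signal of 25.3, and lay between iff-1 and the cell cycle kinase gene cdk-1, 143 bp and 136 bp upstream of their starts.

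Among initiation factors the 4 eIF3 genes included the strongest. The eIF3 complex, a large assembly on the small subunit, keeps the subunits apart and recruits mRNA. The eif-3.C region (chromosome I, 9979712 to 9980075) had a signal of 64.1 in replicate 1 (rank 193) and 70.5 in replicate 2 (rank 72). The eif-3.B region (chromosome II, 14794971 to 14795334) had 80.5 in replicate 1 (rank 108) and 50.6 in replicate 2 (rank 198). Both genes encode core subunits, and the pooled ranks were 113 for eif-3.C and 135 for eif-3.B. The eif-3.E region (chromosome I, 10642304 to 10642667) had a signal of 39.2 in replicate 1 (rank 570) and of 39.6 in replicate 2 (rank 353), with a pooled rank of 437. The eif-3.H region (chromosome I, 4444274 to 4444637) had 15.3 in replicate 1 (rank 5258) and 41.8 in replicate 2 (rank 327), with a pooled rank of 831. The eif-3.H region, like that of eef-1B.2, was thus among the 970 strongest of replicate 2 and not of replicate 1, and its log2 ratio of replicate 2 to replicate 1 (1.45) was above the upper quartile of 0.05 over the IDR peaks in both lists.

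The other 7 eIF3 genes had no peak. The promoters of eif-3.I (rank 1876 in replicate 1, 1151 in replicate 2) and eif-3.J (rank 1317 in replicate 1, 1110 in replicate 2) held regions in both replicates, at pooled ranks of 1192 and 1202. The eif-3.J summit lay 944 bp upstream, in an untranslated part of slc-25A46. The promoter of eif-3.G held weak regions in both replicates (ranks 8154 and 22369) and none in the pooled list, and that of eif-3.K one in replicate 1 alone (rank 7578). No region of any list lay in the promoters of eif-3.D, eif-3.F and eif-3.L. Genes of a single complex, whose proteins are made to work together, therefore ranged from the 113th pooled region to none in their own promoters. For eif-3.F, the gene wbp-2 ends 115 bp upstream on the same strand. Whether they are transcribed together was not tested.

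Of the eIF2B subunit genes, which encode the exchange factor that recharges eIF2, eif-2Bbeta had a peak (chromosome I, 11893711 to 11894074). Its signal was 29.8 in replicate 1 (rank 962) and 39.5 in replicate 2 (rank 356), with a pooled rank of 563. Its start was 166 bp from the summit, while the start of its divergent neighbour Y47H9C.8 was 38 bp away. The other 4 genes of the complex were weaker: eif-2Bgamma reached a pooled rank of 1419, with its summit 987 bp upstream in an intron of C15F1.5, and eif-2Bdelta one of 5675. The promoters of eif-2Balpha and eif-2Bepsilon held regions in replicate 2 alone, at ranks 5977 and 13834.

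The eIF2 genes, whose product carries the initiator tRNA, had no peak. The pooled region of eif-2beta ranked 1721 and lay in an intron of the gene, and that of eif-2gamma ranked 2434. For eif-2gamma the replicates differed: there was no region in replicate 1 and one of signal 27.9 in replicate 2, which ranked 843 and so was among the 970 strongest there. The promoter of eif-2alpha held a region in replicate 2 alone (rank 18763). The gene phb-1, which encodes a mitochondrial prohibitin, ends 132 bp upstream of eif-2alpha on the same strand, and its own promoter held an IDR summit. Worm genes that follow each other this closely can be transcribed together, which was not tested here. When the promoters of upstream genes in a same-strand run with gaps of up to 500 bp were counted too, a rule chosen after seeing the data, eif-2alpha became the 13th member with a peak, against 6.89% of all protein-coding genes.

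The cap-binding side of initiation had no peak. Of the 5 eIF4E genes, ife-2 came nearest, with signals of 23.9 in each replicate (ranks 1511 and 1244) and a pooled rank of 1132. The promoters of ife-1 and ife-3 held a region in replicate 1 alone (ranks 3346 and 4330), that of ife-5 in replicate 2 alone (rank 25345), and that of ife-4 in no list. The gene of the eIF4G scaffold, ifg-1, had signals of 20.9 in replicate 1 and 22.3 in replicate 2, and a pooled rank of 1451. Its pooled summit lay 571 bp upstream of ifg-1 and 35 bp upstream of the neighbour M110.3.

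The remaining initiation genes stand alone by name. The closest to the threshold was eif-6, whose product keeps the ribosomal subunits from joining: its pooled region ranked 990, with signals of 25.8 in replicate 1 (rank 1296) and 26.3 in replicate 2 (rank 967). That region lay 320 bp upstream of eif-6 and 346 bp upstream of the proteasome gene pbs-2. The region of eif-1.A, which encodes eIF1A, had a pooled rank of 2086, and that of eif-2A 5152. The promoters of eif-1 and eif-2D held regions in replicate 2 alone (ranks 21538 and 8502). That of eif-4A3, whose product is known from the exon junction complex and not from initiation, held none.

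Counted over all 39 genes, 12 had an IDR summit, a further 12 a pooled summit only, 10 a summit in a replicate list only, and 5 none. The 12 genes with a pooled summit only had ranks from 990 to 5929, with a median of 1586, and −log10 q from 0.0458 to 2.18. The 12 with a peak had −log10 q from 2.29 to 2.93. Of the 39 genes, 24 had a pooled summit (61.5%, against 18.4% of all protein-coding genes), 25 a replicate 1 summit (64.1%, against 35.0%) and 30 a replicate 2 summit (76.9%, against 39.4%). The median rank of the strongest promoter region was 910.5 for the 24 members in the pooled list and 2432 for the 3679 genes of any kind with such a region. For the 6 elongation genes it was 124.5 and for the 16 initiation genes 1197.

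**Figure D3:**
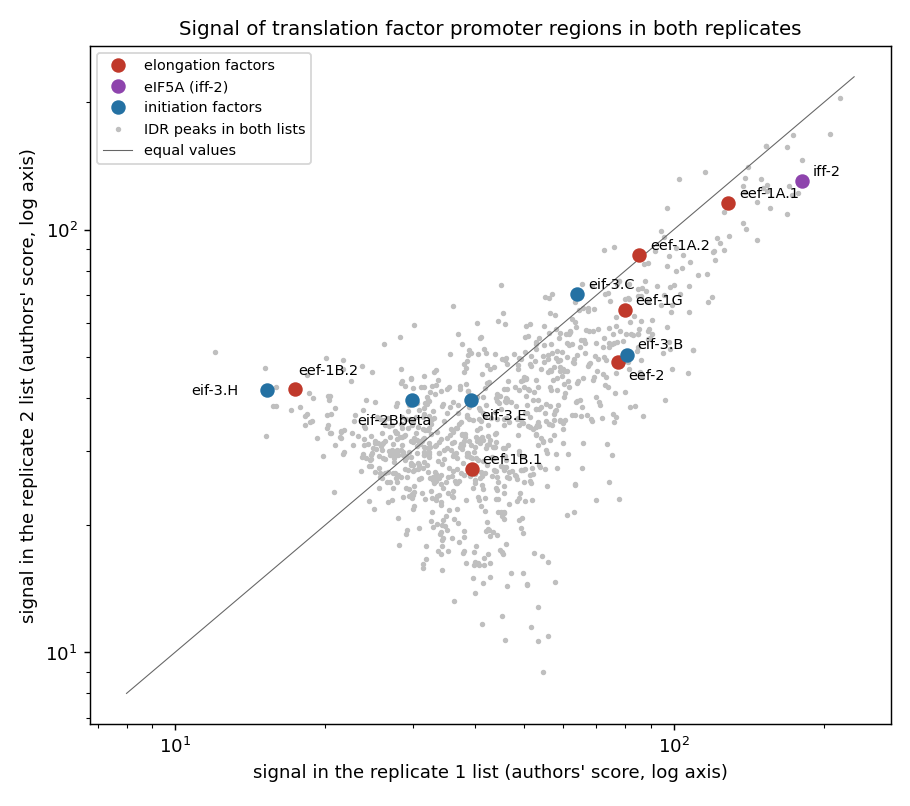
Signal in the replicate 1 list against signal in the replicate 2 list (authors' score, log axes) for the 12 members with an IDR peak, over the 966 IDR peaks found in both lists; the line marks equal values, and the lists were scored separately. The iff-2 and eef-1A.1 points lie at the upper end, and eef-1B.2 and eif-3.H lie at the left, with replicate 2 signals 2.41 and 2.73 times those of replicate 1.

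Most of these peaks were also among the strongest regions of each replicate. This is not independent of how they were chosen, because the IDR rests on the ranks in both replicates. Among the 970 strongest regions of replicate 1 were those of 10 members (against 4.47% of all protein-coding genes), and among the 970 strongest of replicate 2 those of 14 (against 4.63%). The 10 members were the same in both: eef-1A.1, eef-1A.2, eef-1B.1, eef-1G, eef-2, iff-2, eif-2Bbeta, eif-3.B, eif-3.C and eif-3.E. Replicate 2 alone added eef-1B.2, eif-3.H, eif-2gamma and eif-6. The replicate summits of the 12 members with a peak lay a median of 15 bp apart, against 23 bp over all IDR peaks in both lists.

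Most summits lay upstream of the genes, for members as for all genes with a peak. Of the 12 member summits, 11 (91.7%) were upstream of the nearest start of the member, by 26 to 387 bp, against 896 of the 931 genes of any kind with a peak (96.2%). The 5 initiation factor summits lay within a narrow range, 166 to 263 bp upstream, with the 4 eIF3 summits between 205 and 263 bp. The elongation factor summits were spread from 387 bp upstream to 37 bp downstream. Over all 931 genes with a peak the median was 249 bp upstream, with quartiles of 146 and 407.5 bp. The promoters of members with a peak were no longer than others: both they and the other members had a median length of 1201 bp, with maxima of 1652 bp and 2402 bp.

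**Figure D4:**
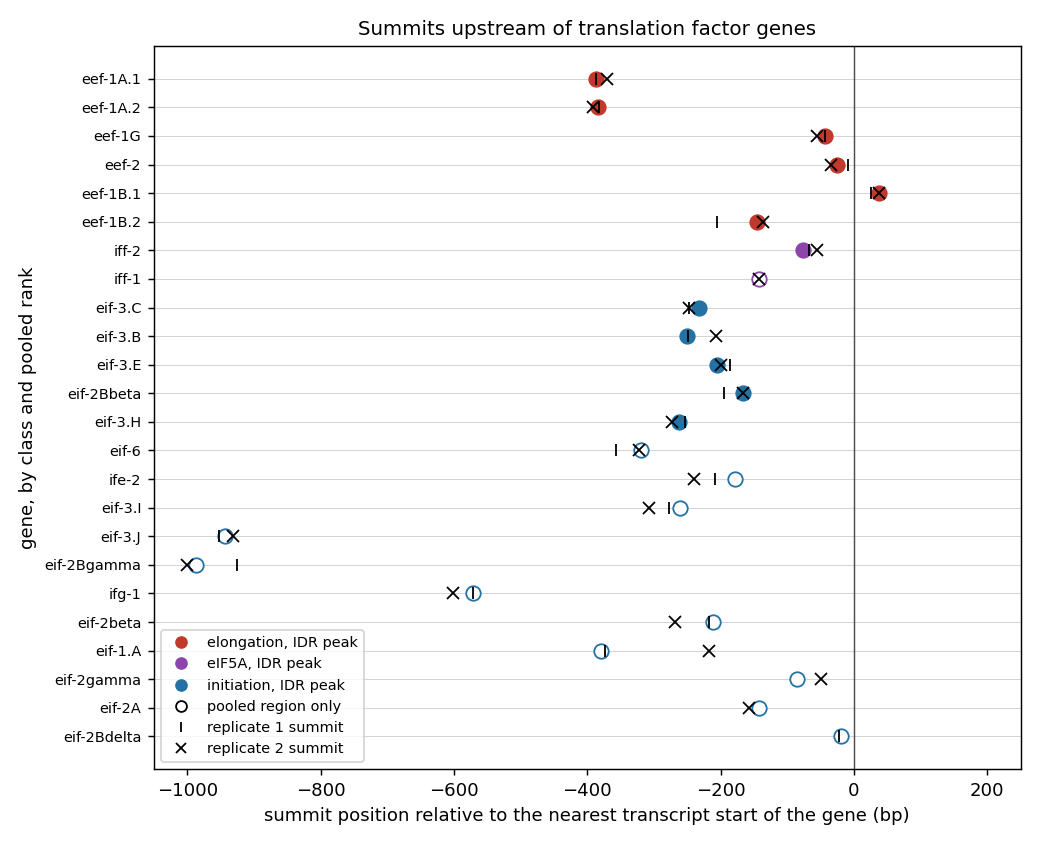
Position of the pooled summit relative to the nearest transcript start of the gene (bp, negative upstream) for the 24 members with a pooled region, with replicate 1 summits as bars and replicate 2 summits as crosses; filled points have an IDR peak. The 5 filled initiation points lie between 166 and 263 bp upstream, and both eEF1A points lie more than 380 bp upstream.

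Members with a peak had a divergent upstream neighbour in 8 of 12 cases (66.7%), against 648 of the 931 genes of any kind with a peak (69.6%). Of the 12 members with a peak, 8 share the summit with the promoter of another protein-coding gene (66.7%), against 525 of the 931 genes of any kind with a peak (56.4%). In 5 of the 8 the start of the member was nearer. These included eef-1G (43 bp against 137 bp for ctf-4) and eef-2 (26 bp against 239 bp for clsp-1). It was also nearer for iff-2 (77 bp against 858 bp for F54C9.14) and eef-1B.1 (37 bp against 368 bp for aco-2). For eif-3.E the distances were 205 bp and, for B0511.17, 543 bp. In the other 3 the neighbour's start was nearer: rfc-4 for eef-1A.1, Y47H9C.8 for eif-2Bbeta and C41D11.3 (107 bp against 263 bp) for eif-3.H. A region shared in this way cannot be given to one gene, and with each summit given to its nearest gene alone 9 members had a peak, against 3.30% of all protein-coding genes. At the peaks of eef-1A.2, eef-1B.2, eif-3.B and eif-3.C the summit lay in the promoter of no other protein-coding gene.

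The sequences at the summits were compared with those of all IDR peaks, by letters alone and on both strands. The motifs searched within 50 bp of the summit were AGGTCA, the half-site of many nuclear receptors, GAGAGA, the GATA-type site TGATAA, the E-box CACGTG, the TATA-box core TATAAA and the AP-1 site TGACTCA. Matches to GAGAGA were found in 3 of the 12 member windows, those of both eEF1A genes and of eif-2Bbeta, and in 31.5% of all 970 IDR windows. The other 5 motifs were in none of the 12. They were in 2.47% (AGGTCA), 2.06% (TGATAA), 3.61% (CACGTG), 4.12% (TATAAA) and 1.03% (TGACTCA) of all IDR windows. That a window lacks these letters says nothing of the factors known to bind them. The G and C content of the member windows ran from 35.6% (eif-2Bbeta) to 60.4% (iff-2), with a median of 48.0%, and the median of all IDR windows was 47.5%.

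The longest run of bases that any pair of the 12 windows had in common was in those of eef-1A.1 and eef-2, of 16 bases. Over the 66 pairs the longest common run had a median of 7 bases. The 16-base run occurs 4 times in the nuclear genome. Its copies at eef-1A.1 and eef-2 lay in IDR peaks by construction, because the run was taken from those windows. The copies on chromosomes X and IV also lay inside pooled regions, which cover 2.79% of the genome. The region on chromosome X was an IDR peak and that on chromosome IV was not. The copies outside the members were on chromosome X (2242991 to 2243006), in a region of signal 180 and pooled rank 53 that lay 367 bp before the start of rpl-11.2, which encodes a ribosomal protein, and on chromosome IV (1709940 to 1709955), in a region of pooled rank 1280 between the proteasome gene pbs-1 and K08D12.3. The replicate ranks were 43 and 63 for the region on chromosome X and 1801 and 1566 for that on chromosome IV. The summits lay 0 to 24 bp from the run. The run was picked, after seeing the data, because 2 member windows held it, and no test was made. The 11-base run common to eef-1B.1 and eef-1B.2 occurs 121 times in the genome, 9 of them in pooled regions. Those 9 include, by construction, the copies at these 2 genes.

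The pathway has further genes outside the naming rule. A list of 35 such genes, made from knowledge of the pathway, matched 30 protein-coding genes, and gfm-2, mtif-2, mtif-3, selb-1 and denr-1 matched none. An IDR summit lay in the promoters of 2 of the 30, larp-1 and abcf-2, where 4.66% of all protein-coding genes had one, and a pooled summit in those of 17, where 18.4% of all protein-coding genes had one. The larp-1 gene, which encodes a La-related RNA-binding protein, had a signal of 97.8 in replicate 1 (rank 58) and 86.9 in replicate 2 (rank 46). That of the ABC-type ATPase gene abcf-2 ranked 252 in replicate 1 and 6527 in replicate 2. The IDR summits lay far from these genes, 670 bp upstream of larp-1 and 858 bp upstream of abcf-2. Over all genes with a peak the upper quartile was 407.5 bp. The genes of eIF4A (inf-1) and of the poly(A)-binding protein PAB-1 (pab-1), partners of eIF4G, had pooled ranks of 2248 and 1166, and that of eIF5B (iffb-1) had no pooled region.

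Other definitions of a promoter gave similar counts of members with a peak. A window from 500 bp before to 100 bp after the start gave 12 members, against 3.78% of all protein-coding genes, and one from 2000 bp before gave 13, against 6.06%. The most upstream start alone gave 12 (4.35%), and a region that overlapped the promoter by 1 bp gave 12 (5.00%), where each percentage is again that of all protein-coding genes. Among the 485 strongest IDR peaks there were 8 members, against 2.55%.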

How the data were processed

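The data are peak lists in narrowPeak format from 2 biological replicates. Per the deposited readme files, the authors called regions in each replicate against a control, called them again on the pooled replicates, and derived the IDR list from those. The sources used here do not name the aligner, the peak caller, their versions or the threshold on IDR. The deposited signal value is a score with no stated scale, used for ranks within a list, and the authors' q-values are given as −log10. The labels name nhr-237 as antibody and the eGFP fusion as target.

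The 4 lists on ce11 were used, and those on ce10 were not. Genes and transcript starts came from Ensembl release 115 (WBcel235). Summits are column 2 plus column 10, given here counting from 1. Where a promoter held several summits, the strongest was taken. Assignment was checked on planted regions. Python 3.11.15 with pandas 2.3.3 was used.

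The members, lists and motifs were chosen with earlier results of these data known. Named by rule are all members, genes that share a region with one, and listed translation genes. The genes phb-1, wbp-2, rpl-11.2, pbs-1 and K08D12.3 and the genes whose introns or untranslated parts hold a summit were named after their values had been seen. With 1 group and 2 replicates no test between groups exists, and none was made. Protein sequences were not used here.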

Additional observations from a re-analysis of the deposited data

How the results depend on the processing

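The count of 12 members with a peak ranged from 8 (the 485 strongest IDR peaks) to 14 (without replicate 1), within 1.5 times under each alternative run. It was 10 without replicate 2, and 13 with the wider promoter or same-strand runs. The 6 elongation genes gave 5 without replicate 2 and with nearest genes alone, 4 among the 485 strongest peaks, and 7 with eIF5A counted among them. The 5 initiation genes gave 3 among the 485 strongest peaks and 3 with nearest genes alone, beyond 1.5 times. They gave 4 without replicate 2, 7 without replicate 1 and 6 with eIF5A among them. With 100 bp on each side of the summit, TGATAA and TATAAA were found in 1 member window each (eif-3.E and eif-3.B), where the narrower window had none. Taking the region nearest to the start in place of the strongest lowered the pooled signal of eif-1.A to 33.0 and of eif-2Bgamma to 31.9, and changed none of the other 22 members with a pooled region. The median pooled rank of members, 910.5, ranged from 759.5 to 990 over the other promoter rules. The number of reads is unknown, so no error can be given for the ranks of weak regions in the replicate lists.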

Other observations

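Hexamers common to the summit windows were counted after the windows had been seen, with no test. Of 767 hexamers in the 12 windows (both strands taken as one), none was in more than 5, and 7 were in 5. The rarest of the 7 over all IDR windows was GTTGCA, in the windows of eef-1B.2, eef-1G, eif-3.B, eif-3.C and eif-3.H and in 5.57% of all 970. The related hexamer CGTTGC, or GCAACG on the other strand, was in those of eef-1A.1, eef-1B.1, eif-3.B, eif-3.C and eif-3.E and in 7.22% of all. Between them in rarity was GTTTGA, in the windows of eef-1A.1, eef-1A.2, eef-1B.1, eef-2 and eif-3.B and in 6.60% of all. The rest of the 7 were each in 13.3% to 22.7% of all IDR windows. The windows of eif-3.B and eif-3.C hold both GTTGCA and CGTTGC, and in that of eif-3.B the matches overlap. Runs of 11 bases were common to the windows of eif-3.C and eif-3.B and of eif-3.C and eef-1B.1. The run of eif-3.C and eif-3.B occurs 63 times in the genome, 9 of them in pooled regions. That of eif-3.C and eef-1B.1 occurs 111 times, 4 of them in pooled regions. These counts include, by construction, the copies at the genes themselves.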
